A study of Drosophila melanogaster with 6 samples.

Results

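Several genes of the autophagy pathway were followed in the proboscis of male Drosophila melanogaster: Atg1, Atg2, Atg3, Atg4a, Atg5, Atg7, Atg8a, Atg8b, Atg9 and Atg18a. They were chosen around Atg7, one of the few genes called higher in flies homozygous for poxn70 than in heterozygotes, and the question was whether the rest of the pathway shared that difference. The difference of Atg7 therefore chose the list and is given here as a description. Each gene was found by its symbol in the platform annotation, and all 10 had exactly 1 probe set assigned to that gene alone, among 11981 genes on the array with such a probe set. The study compared dissected proboscises of males that carried the poxn70 allele of Pox neuro on both chromosomes with those of males that carried it on one, so the controls also had a mutant copy. Each genotype was represented by 3 biological replicates, hybridised to 6 arrays in total. The males were 8 to 18 days past eclosion, 164 to 280 proboscises were pooled for each array, and each pool was dissected in several batches. The labels do not describe the chromosome that the heterozygotes carried opposite poxn70. Values are log2 GCRMA values, 1 unit being a doubling of signal, and differences are homozygous minus heterozygous.

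Autophagy is the process by which a cell wraps part of its own cytoplasm in a double membrane, the autophagosome, and delivers it to the lysosome for breakdown. The kinase Atg1 starts the process, Atg9 vesicles, Atg2 and Atg18 proteins build the membrane, and a pair of ubiquitin-like conjugation reactions attach Atg8 to it. Atg7 is the activating enzyme at the head of both conjugation reactions. In the fly the pathway is known from the fat body, gut, muscle and nervous system, where it responds to starvation and to ageing.

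Poxn gives taste bristles their chemosensory identity, and taste neuron transcripts differed between the genotypes. Poxn itself was read near background in all 6 arrays (2.30 to 2.65), so its probe set gave no check of the labels. All 6 taste neuron markers had homozygous values below every heterozygous one, with a list mean of 3.48 to 3.81 in homozygous arrays against 7.39 to 8.01 in heterozygous arrays. Of the 6, 4 were called lower, and Gr64f and ppk28 were not (limma adjusted p = 0.192 and 0.0579). Of all probe sets with at least 1 group mean at 3 or more, the background limit, 8.54% were lower without overlap. Blood cell markers had 4 of 4 above that limit of 3 and a list mean of 9.65 to 9.74 in homozygous arrays against 8.68 to 9.10. Of these 4, 0 were called (limma adjusted p from 0.0614 to 0.626), and NimC1 overlapped between the genotypes with a difference of 0.23. Neuronal markers had a list mean of 5.94 to 6.70 in homozygous arrays against 7.01 to 7.24, with 3 of 4 measured above the limit and brp under it. All 3 had lower homozygous means, elav and Appl without overlap, and 0 were called (limma adjusted p from 0.158 to 0.611). Of markers of other tissues, 2 of 2 glial, 3 of 3 muscle and 3 of 4 fat body markers were above the limit. The fat body marker gene fit passed only through its homozygous mean of 3.07, against 2.26 in heterozygotes. The rest of these passed in both genotypes. These are bulk samples, in which fewer cells of a type and less RNA per cell cannot be told apart. Homozygous replicate 1 stood apart in the control transcripts that read both ends of one RNA. Its 3′ probe set exceeded the 5′ one by 10.8 log2 units for GAPDH and 10.2 for eIF-4a, against 4.42 to 5.69 and 5.90 to 6.95 in the other 5 arrays.

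Atg7 read 9.35, 8.97 and 9.12 in heterozygous replicates 1, 2 and 3, and 10.95, 11.20 and 10.70 in homozygous replicates 1, 2 and 3. Every homozygous array lay above every heterozygous one, and the lowest homozygous value exceeded the highest heterozygous value by more than a doubling of signal. The means were 10.95 ± 0.25 (SD, n = 3) and 9.14 ± 0.19 (SD, n = 3), a difference of 1.81 (SE 0.18, 95% interval 1.36 to 2.25), or 3.50-fold. In the limma fit over all 18769 probe sets 11, or 0.0586%, were called higher at an adjusted p under 0.05 and 59, or 0.314%, lower. Atg7 was among the 11 (limma adjusted p = 0.0378), and it was on the list for that reason. Between arrays of the same replicate number the difference was 1.61, 2.24 and 1.58. It was 1.81 without homozygous replicate 1 and ran from 1.68 to 1.93 over the 6 fits that left out 1 array. The call did not survive these fits, in which the adjusted p was 0.0743 to 0.215 (limma), nor the replicate number as a block (adjusted p = 0.320 with the replicate block). Every homozygous list mean of the taste neuron and neuronal markers was below every heterozygous one, and that of the blood cell markers above, in the amounts given earlier. Of the neuronal markers elav differed by -1.17 and Appl by -1.16. In homozygous replicate 1 elav read 6.28, against 8.40 and 8.27 in homozygous replicates 2 and 3, so its difference rests largely on that array. The part of these markers in the value of Atg7 was not tested.

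**Figure D1:**
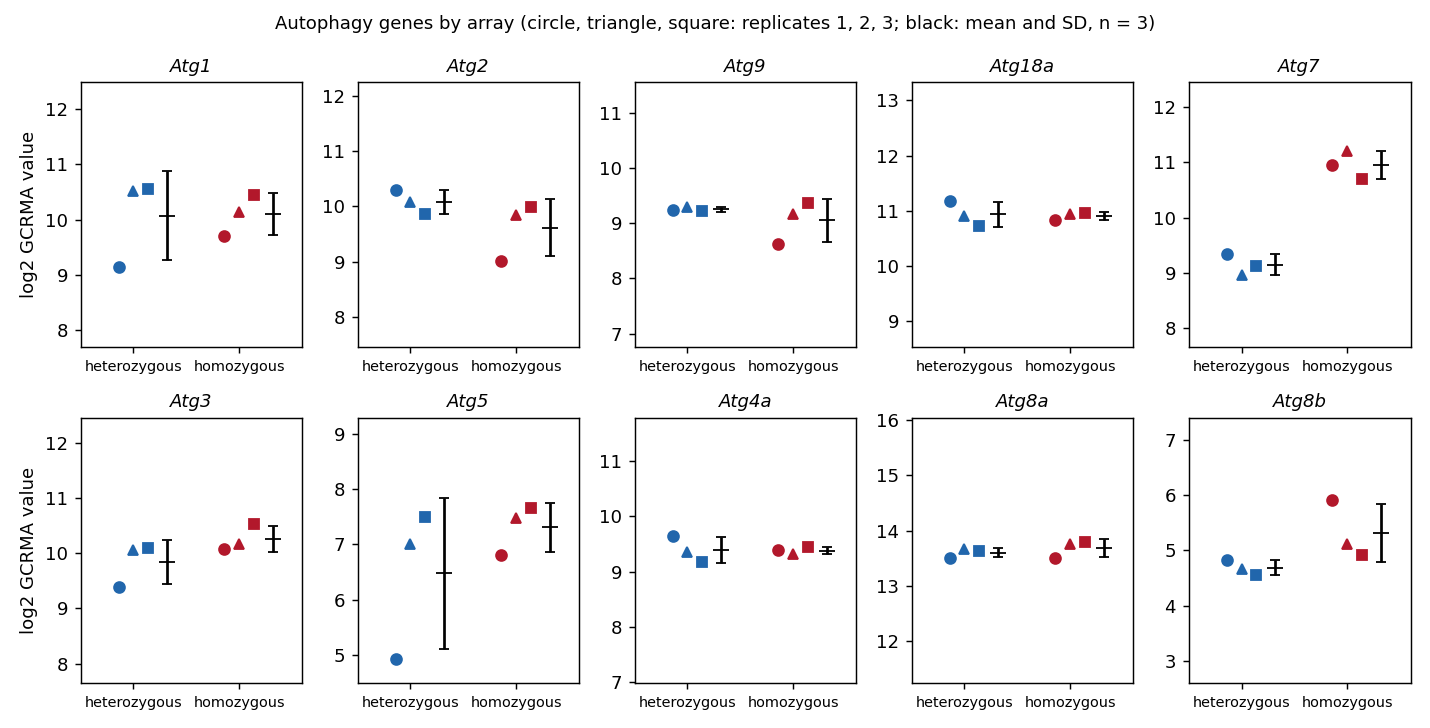
Log2 GCRMA values (y axis) of the 10 autophagy genes in 3 heterozygous (blue) and 3 homozygous (red) arrays, 1 panel per gene, each y axis covering the same number of log2 units. Circles, triangles and squares are replicates 1, 2 and 3, and black bars are the mean and SD. Atg7 and Atg8b are the genes whose groups did not overlap, and Atg5 has 1 low array, heterozygous replicate 1, at 4.92.

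Other members of the conjugation reactions, Atg3, Atg5 and Atg4a, did not pass the test. Atg3, which takes activated Atg8 from Atg7 and attaches it to phosphatidylethanolamine, read 9.38, 10.07 and 10.09 in heterozygotes and 10.09, 10.17 and 10.52 in homozygotes. Homozygous replicate 1 and heterozygous replicate 3 were nearly level, so the groups overlapped. The means of Atg3 were 10.26 ± 0.23 (SD, n = 3) and 9.85 ± 0.40 (SD, n = 3), a difference of 0.41 (95% interval -0.21 to 1.03, limma adjusted p = 0.611). With 1 array left out it ran from 0.18 (heterozygous replicate 1) to 0.53 (heterozygous replicate 3). Atg5, which forms the enzyme that receives Atg12 and directs Atg8 to the membrane, read 4.92, 7.02 and 7.50 in heterozygotes and 6.81, 7.47 and 7.65 in homozygotes. A single array, heterozygous replicate 1, lay more than 1 log2 unit below all others, and the rest of the values overlapped. The difference of Atg5 was 0.83 with a wide interval (-1.04 to 2.70, limma adjusted p = 0.611). With 1 array left out it ran from 0.05 (heterozygous replicate 1) to 1.34 (heterozygous replicate 3). Atg4a, the protease that trims Atg8 and later frees it from the membrane, had a difference of -0.01 (95% interval -0.38 to 0.36), with all 6 values between 9.18 and 9.65.

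The Atg8 proteins, the ubiquitin-like substrates of these reactions, have 2 genes among the 10. Atg8a, the broadly used form that coats autophagosomes, lay between 13.50 and 13.80 in all 6 arrays. Its difference was 0.08 (95% interval -0.23 to 0.40, limma adjusted p = 0.712), the narrowest interval among the 10 genes. Atg8b, known for a role in the male germ line, read 4.83, 4.67 and 4.56 in heterozygotes and 5.91, 5.11 and 4.92 in homozygotes. The groups did not overlap, with homozygous replicate 1 highest and the lowest homozygous value a little over the highest heterozygous one. The difference of Atg8b was 0.63 (95% interval -0.20 to 1.47, limma adjusted p = 0.611) and did not pass the test. It was 0.33 without homozygous replicate 1, the array with the large difference between 3′ and 5′ control probe sets. Without homozygous replicate 3 it was 0.83. The part of homozygous replicate 1 was not tested further. Of the 5 testis markers, 4 were under the background limit in both genotypes (Mst87F, dj, betaTub85D and ocn). The fifth, Mst98Ca, averaged 3.38 ± 0.71 (SD, n = 3) in heterozygous arrays against 3.01 ± 0.47 (SD, n = 3) in homozygous ones.

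The genes that start the autophagosome and supply its membrane had differences of either sign, and none passed the test. Atg1, the kinase that starts autophagy, read 9.14, 10.51 and 10.56 in heterozygotes and 9.71, 10.15 and 10.45 in homozygotes. The arrays numbered 1 were the lowest of their genotype in both groups, and the difference was 0.03 (95% interval -1.12 to 1.18, limma adjusted p = 0.970). It was -0.43 without heterozygous replicate 1 and 0.23 without homozygous replicate 1. Atg2, which moves lipid into the growing membrane, read 10.29, 10.07 and 9.86 in heterozygotes and 9.02, 9.84 and 9.98 in homozygotes. Homozygous replicate 1 was the lowest, and the other 2 homozygous arrays lay near the lowest heterozygous one. The difference of Atg2 was -0.46 (95% interval -1.21 to 0.28, limma adjusted p = 0.611). It was -0.17 without homozygous replicate 1 and -0.65 without homozygous replicate 3. Atg9, the transmembrane protein of the vesicles that seed the autophagosome, read 9.24, 9.30 and 9.22 in heterozygotes and 8.62, 9.16 and 9.36 in homozygotes. Its difference of -0.20 (95% interval -0.73 to 0.33) became 0.01 without homozygous replicate 1. Atg18a, which binds the phosphatidylinositol 3-phosphate of the membrane, lay between 10.73 and 11.18 and had a difference of -0.03 (95% interval -0.38 to 0.33). The probe set of Atg18a is of the kind that can match transcripts of more than 1 gene, although the annotation names this gene alone.

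The difference of Atg7 was not found in the other 9 genes at this precision. Called were 0 higher and 0 lower among the 9 (limma, adjusted p from 0.611 to 0.973), against the shares of 0.0586% and 0.314% over all probe sets. At an unadjusted p under 0.05 there were 0 as well, beside 4.33% higher and 2.9% lower over all probe sets. In 5 the homozygous mean was higher and in 4 it was lower, with a median difference of 0.03, the same as the median of 0.03 over all 9381 probe sets above the background limit. Groups did not overlap in 1 of the 9, Atg8b, against 12.6% higher and 8.54% lower among probe sets above the limit. All 9 intervals contained 0, and in 8 the upper end lay under 1.81, the value of Atg7 that chose the list. The exception was Atg5, whose interval reached 2.70. Atg7 has an interval of its own, 1.36 to 2.25, which holds the upper end of Atg8b at 1.47. No difference between genes was tested. The adjusted p says only that the test was missed, and the intervals leave room for increases of up to 0.28 to 1.47 log2 units in those 8 genes.

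**Figure D2:**
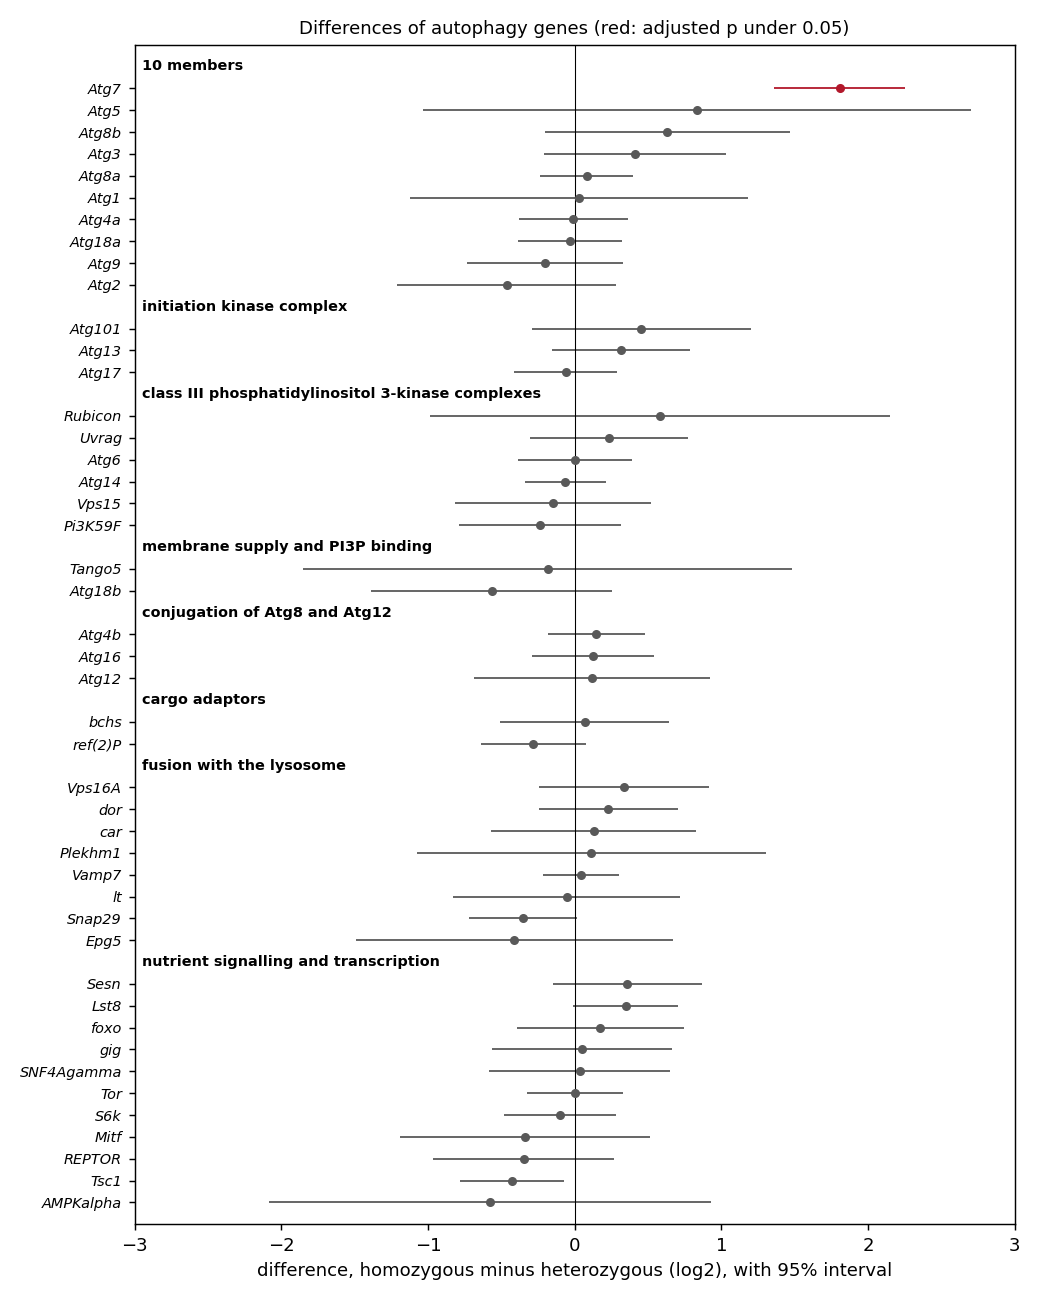
Differences between homozygous and heterozygous proboscises (x axis, log2) with 95% intervals from limma, for the 10 members and for the 35 other autophagy genes above the background limit, grouped by role. Red marks an adjusted p under 0.05, which only Atg7 reached in this set.

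The wider pathway gave the same count. A list of 42 other autophagy genes was written by role, of which 38 had a probe set of their own and 35 were above the background limit. Called were 0 higher and 0 lower (limma, adjusted p of 0.604 or more), beside 0.0586% and 0.314% of all probe sets. At such shares most lists of this size would give 0 calls. At an unadjusted p under 0.05 there were 0 higher and 1 lower, beside 4.33% and 2.9% of all probe sets. Homozygous means were higher in 20 of the 35 and lower in 15, with a median difference of 0.03 and a range of -0.58 to 0.58. Groups did not overlap in 3 higher and 2 lower genes, 8.57% and 5.71% of the 35, beside 12.6% and 8.54% among all probe sets above the limit. In 34 of the 35 the interval ended below the 1.81 of Atg7, the exception being Rubicon at 2.15. The upper end of Tango5, 1.48, lay inside the interval of Atg7 itself (1.36 to 2.25). No difference between genes was tested here either. Syx17, Rab7, Rheb and Thor had no probe set of their own in the annotation used here and were not analysed.

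Partners of Atg1 in the initiation complex included Atg13, the subunit that Tor phosphorylates. Atg13 read 9.81, 10.33 and 10.42 in heterozygotes and 10.45, 10.58 and 10.47 in homozygotes, without overlap and by a difference of 0.31 (limma adjusted p = 0.611). That difference was 0.125 without heterozygous replicate 1 and 0.43 without heterozygous replicate 3. The gap between the nearest arrays of the 2 groups was small beside the spread of the heterozygous arrays. Atg101, another subunit, had a difference of 0.45 (95% interval -0.29 to 1.20) with homozygous replicate 1 highest, and 0.20 without that array. Atg17, the scaffold, was near background at 2.86 to 3.28.

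In the lipid kinase complexes that make phosphatidylinositol 3-phosphate, Pi3K59F, the catalytic subunit, had a difference of -0.24 (95% interval -0.79 to 0.31), which was -0.09 without heterozygous replicate 2 and -0.10 without homozygous replicate 1. Uvrag, a subunit of the complex that acts in endosomes and late autophagy, had a difference of 0.23 (95% interval -0.31 to 0.77), which was 0.10 without homozygous replicate 1 and 0.11 without heterozygous replicate 3. Rubicon, which restrains that complex in mammals, had a difference of 0.58 (95% interval -0.99 to 2.15). Its homozygous arrays spread from 5.20 to 7.34, and replicate 1 was the lowest. The difference of Rubicon was 1.21 without homozygous replicate 1 and 0.14 without homozygous replicate 2. Atg18b, a relative of Atg18a, read 7.69, 8.14 and 8.25 in heterozygotes and 6.85, 7.75 and 7.79 in homozygotes, a difference of -0.57 (limma adjusted p = 0.611) that was -0.26 without homozygous replicate 1. Tango5, the fly form of a membrane protein of the endoplasmic reticulum needed for autophagosome formation, had a difference of -0.18 that became 0.54 without homozygous replicate 1. Its probe set, like that of Atg18a, is of the kind that can match transcripts of more than 1 gene.

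Among the other conjugation genes the differences were small. Atg4b, a second Atg4 protease, had a difference of 0.15 (95% interval -0.18 to 0.48), and Atg16, which binds Atg5, one of 0.13 (95% interval -0.29 to 0.54). They were 0.03 without heterozygous replicate 1 for Atg4b and 0.0015 without homozygous replicate 1 for Atg16. Atg10, which passes Atg12 from Atg7 to Atg5, was under the background limit in all 6 arrays (2.12 to 2.75) by its own probe set. A second probe set, which Atg10 shares with CG12822, read 7.57 in homozygous replicate 1 and 9.17 to 9.63 in the other 5 arrays, so the level of Atg10 is not settled here. The adaptor ref(2)P, which carries ubiquitinated cargo and is itself degraded by autophagy, read 13.71, 13.92 and 14.03 in heterozygotes and 13.45, 13.76 and 13.61 in homozygotes. The groups overlapped by 1 array, and the difference was -0.28 (95% interval -0.64 to 0.08, limma adjusted p = 0.611). The large adaptor bchs (blue cheese) had a difference of 0.07 (95% interval -0.51 to 0.65), and of 0.28 without homozygous replicate 1.

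Snap29, a membrane fusion protein of autophagosomes, read 10.74, 10.49 and 10.34 in heterozygotes and 10.15, 10.04 and 10.32 in homozygotes. The groups lay side by side without overlap, with homozygous replicate 3 just under heterozygous replicate 3, and the difference was -0.35 (95% interval -0.72 to 0.01, limma adjusted p = 0.611). Vps16A and dor, parts of the complex that tethers membranes to the lysosome, had differences of 0.34 (95% interval -0.24 to 0.92) and 0.23 (95% interval -0.24 to 0.70). That of Vps16A was 0.12 without homozygous replicate 1, and that of dor 0.13 without heterozygous replicate 1.

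Of the nutrient signalling genes, Tsc1, which restrains Tor signalling, read 9.35, 9.27 and 9.13 in heterozygotes and 8.74, 8.68 and 9.05 in homozygotes. It was lower without overlap, with a difference of -0.43 (95% interval -0.78 to -0.07) and the smallest adjusted p of the list (limma adjusted p = 0.604), which did not pass. Lst8, a subunit of the Tor complexes, read 8.32, 8.67 and 8.68 against 8.94, 8.98 and 8.79 in homozygotes, and the difference of 0.35 had a limma adjusted p of 0.611 and was 0.23 without heterozygous replicate 1. Sesn (Sestrin), which restrains Tor signalling under stress, had a difference of 0.36 (95% interval -0.15 to 0.87), also without overlap, which was 0.16 without heterozygous replicate 1. None of these 3 genes passed over all probe sets.

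Within a genotype several members varied between arrays numbered 1 and the others, a comparison that the choice of genes did not use. Atg5 averaged 5.87 in the 2 arrays numbered 1 and 7.41 in the other 4, a difference of -1.54. For Atg1 the same difference was -0.99 and for Atg3 it was -0.48, and these 3 genes had their lowest value in heterozygous replicate 1. Atg2 and Atg9 instead had their lowest value in homozygous replicate 1. Atg8b was 0.55 higher in the arrays numbered 1, and Atg7 differed by 0.15, small beside its difference between genotypes. Among the 9 members other than Atg7 and the 35 other genes above the limit, 3 lay over 1 log2 unit below the other 5 arrays in homozygous replicate 1, and 0 lay over 1 unit above them. These were AMPKalpha at 9.07 against 10.96 to 11.16, Tango5 at 6.09 against 7.46 to 8.38 and Epg5 at 7.17 against 8.46 to 8.66, named after their values were seen. The probe sets of AMPKalpha and Tango5 are of the kind that can match transcripts of more than 1 gene. The share of all probe sets with such a gap was not computed. By rank alone, homozygous replicate 1 was the lowest of the 6 arrays in 14 of the 35 other genes and the highest in 11. Over all 9381 probe sets above the limit it was the lowest in 2555 and the highest in 3257. The control transcripts had their lowest 5′ values in the same array. Heterozygous replicate 1 had the next lowest, 7.52 for GAPDH and 7.17 for eIF-4a. It also had the largest 3′ minus 5′ differences of the other 5 arrays, 5.69 and 6.95. The part of RNA integrity in the values of the genes was not tested.

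**Figure D3:**
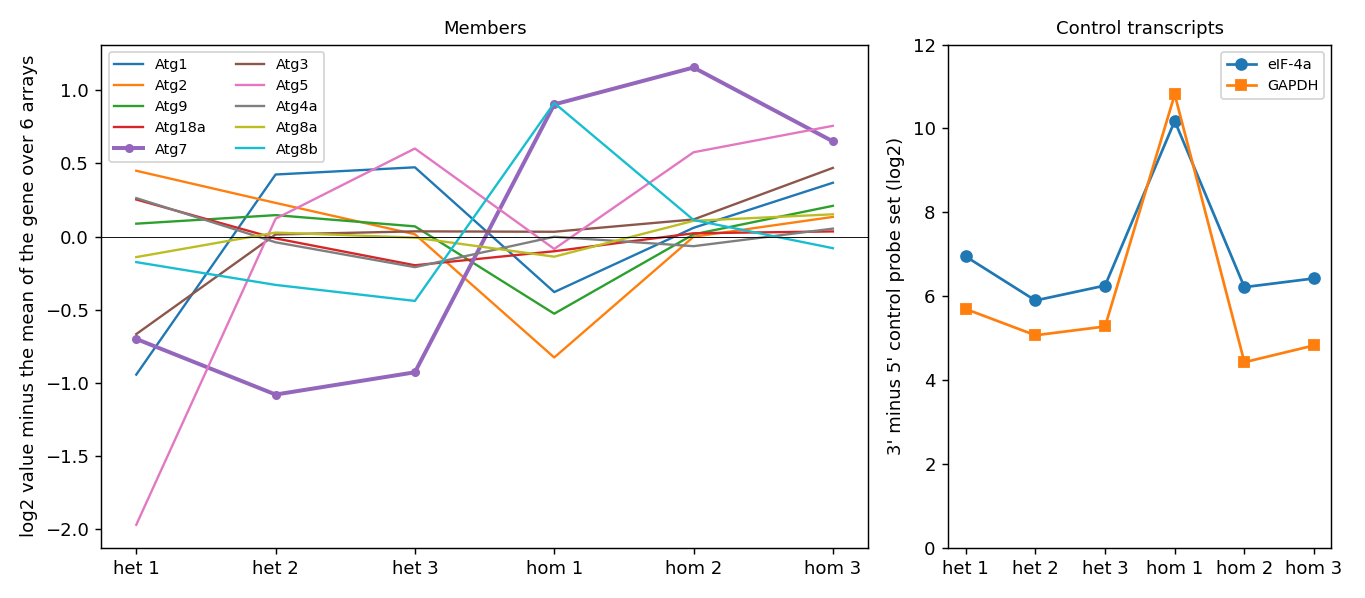
Left, the log2 value of each member in each array minus the mean of that gene over the 6 arrays, with lines joining the values of 1 gene and Atg7 drawn thick. Right, the log2 value of the 3′ minus the 5′ probe set of the control transcripts eIF-4a and GAPDH. Arrays are heterozygous (het) and homozygous (hom) replicates 1 to 3, and homozygous replicate 1 stands apart at 10.2 and 10.8 on the right.

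Among genes with signal and an SD of at least 0.5, those whose values followed Atg7 most closely were not members of the pathway list. Of the other members only Atg1 and Atg5 reached that SD, so the ranking could not hold the rest. Most of the other listed autophagy genes fell short of it as well. Over the 6 arrays and 2456 genes with signal and an SD of at least 0.5, the highest Pearson r with Atg7 were 0.999 for CG15282, 0.984 for CG2070, 0.974 for scpr-C, 0.971 for CG17107 and 0.970 for CG9400. Each r spans both genotypes, so it holds mainly the gap between them, and the 6 arrays are shared by all genes. CG15282 read 12.27, 11.95 and 12.14 in heterozygotes and 13.48, 13.71 and 13.37 in homozygotes. In both genotypes its arrays were ordered as those of Atg7 were. Of these 5 genes, all but scpr-C were called higher in the same fit. They were picked for their r with Atg7 over both genotypes. The array order and the calls largely follow from that choice and are given as a description. Atg8b had the highest r with Atg7 among the members, at 0.73, but its SD of 0.49 kept it out of the ranking.

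Atg7 lies on chromosome arm 2R, the arm that also holds Poxn, with 553 other genes listed between the 2 in RefSeq (assembly Release 6 plus ISO1 MT). The other members lie on 3L (Atg1, Atg2, Atg3 and Atg18a), 2L (Atg4a), X (Atg5 and Atg8a), 3R (Atg8b) and 2R (Atg9). Of the 553 genes, 366 had a probe set of their own and 1, CG10936, was called higher against 0 lower, beside 0.0751% and 0.442% of all genes. CG10936 read 2.96, 2.98 and 3.10 in heterozygotes and 5.22, 4.55 and 4.91 in homozygotes, with 2 of the 3 heterozygous values under the background limit. Its probe set, like that of Atg18a, is of the kind that can match transcripts of more than 1 gene. Among the 241 of these genes above the limit, 42 were higher without overlap (17.4%) and 15 lower (6.22%), beside 13.1% and 8.64% of all genes above it. Over the whole arm 2427 genes had a probe set of their own. Of these 4 were called higher, Atg7 and CG10936 among them, and 15 lower, beside 9 and 53 of all 11981 genes. Whether the place of Atg7 on this arm bears on its value was not tested.

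**Figure D4:**
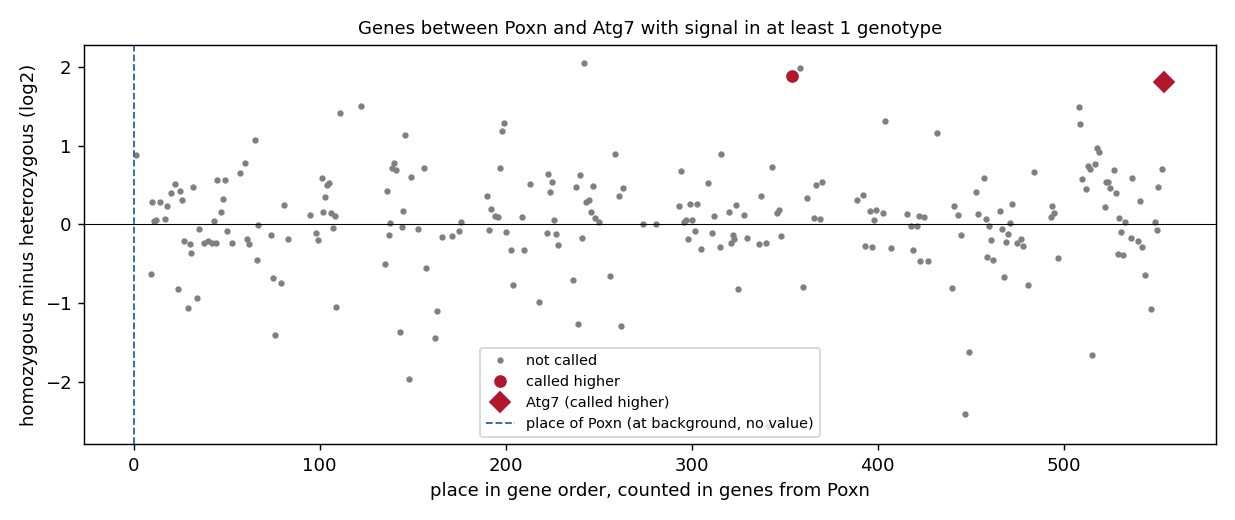
Difference between genotypes (y axis, log2) of the 241 genes above the background limit that lie between Poxn and Atg7, by place in gene order counted in genes from Poxn (x axis). Grey points were not called, the red point is CG10936 and the red diamond is Atg7, and the dashed line marks the place of Poxn. CG10936 and Atg7 stand at 1.88 and 1.81.

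The direct neighbours of Atg7 were not called. CG5335, which is annotated inside the span of Atg7, read 7.46, 7.00 and 7.36 in heterozygotes and 6.89, 6.67 and 6.99 in homozygotes. It was lower without overlap, by a difference of -0.42 (95% interval -0.92 to 0.07, limma adjusted p = 0.611), the opposite sign to Atg7. CG5493, the next gene on one side, read 8.64, 8.74 and 8.85 in heterozygotes and 10.32, 9.24 and 8.78 in homozygotes. Its difference of 0.70 (95% interval -0.33 to 1.74) was 0.27 without homozygous replicate 1. CG5327, beyond it, was at background in all 6 arrays (2.25 to 2.26). Sec6, on the other side, had no probe set of its own here, and Cth, after it, had a difference of -0.42 (95% interval -2.37 to 1.53) that became 0.45 without homozygous replicate 1. None of the 9 measured genes among the 5 on each side of Atg7 was called, beside 0.0751% higher and 0.442% lower of all genes. At such shares most sets of 9 genes would hold no call.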

How the data were processed

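RNA came from a Trizol extraction, and some 50 ng of it was turned into biotinylated cRNA by repeated amplification, per the labels' protocols. The authors deposited log2 values made with GCRMA (version not stated), as the submitters' processing notes record. GCRMA corrects background from probe sequence, normalizes arrays and summarises each probe set. Of 18952 probe sets, 183 array controls were left out of the tests. Symbols came from the platform annotation, updated through Entrez identifiers in a RefSeq table, which also gave arms and gene order. Tor was looked up as mTor. Values under 3 were treated as background. Genes with several probe sets were represented by the one with the highest mean.

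The main fit used limma 3.58.1 (R 4.3.3) with lmFit and a trended eBayes over all 18769 probe sets, with Benjamini-Hochberg adjustment, a threshold of 0.05 and no block. The code was tested on simulated data. Only 6 arrays limit the precision. Replicate numbers are shared by both genotypes. Deviations of same-numbered arrays from their group means correlated at 0.372, 0.288 and 0.142 for numbers 1, 2 and 3, all over 0.1. On that ground the numbers may pair the arrays. The main fit, with its intervals and calls, left this pairing out, and of the alternatives only the replicate block used it. The labels do not state it, and it is uncertain: across numbers, homozygous 3 against heterozygous 2 gave 0.275, a higher value than its same-numbered pair, and homozygous 2 against heterozygous 3 gave 0.129. Alternatives were a replicate block, median centring, quantile normalization, no intensity trend, the dimmer 50% of probe sets left out, and each array left out. The fit without both arrays numbered 1 was added after seeing the data. No member had another probe set of its own, so that alternative gave no value. The members and lists were chosen with earlier results of these data known. Named genes were the members, up to 3 genes per role with the smallest unadjusted p, the 5 genes most like Atg7, up to 2 measured neighbours on each side, Poxn, and called genes between Poxn and Atg7. Other genes are said to be outside this rule where they are named, or are markers.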

Additional observations from a re-analysis of the deposited data

How the results depend on the processing

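Atg7 kept a positive difference in all 12 alternatives, between 1.68 and 1.93, but not its call. Members called higher numbered 1, Atg7, by default and under median centring, quantile normalization and with the dimmer probe sets left out. The count was 0 with the replicate block, with no intensity trend (adjusted p = 0.0614, limma), without both arrays numbered 1 (adjusted p = 0.139) and in all 6 fits that left out 1 array, where fewer arrays also lower the power. Members called lower, and other autophagy genes called higher or lower, were 0 in every alternative run. Over the whole table the calls were 11 higher and 59 lower. They became 0 and 0 with the replicate block, 35 and 117 under median centring, 34 and 123 with the dimmer probe sets left out, 13 and 35 with no intensity trend, and 0 and 9 without both arrays numbered 1. Leaving out 1 array gave 0 to 12 higher and 6 to 54 lower. Calls between Poxn and Atg7, 1 higher and 0 lower, became 0 higher with the replicate block, under quantile normalization and without both arrays numbered 1. They were 4 higher under median centring, 3 higher and 1 lower with the dimmer probe sets left out, and 0 higher and 1 lower with no intensity trend, and leaving out 1 array gave 0 to 1 higher. The cause of these changes was not tested. Scaling moved the median of all differences by 0.0064 (median centring) and -0.0054 (quantile normalization).

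Genes that were not called changed sign in some fits. When 1 array was left out the differences ran from -0.43 to 0.28 for Atg1, -0.12 to 0.12 for Atg4a, -0.36 to 0.011 for Atg9, -0.13 to 0.090 for Atg18a, -0.17 to 0.053 for Atg17, -0.60 to 0.54 for Tango5, -0.046 to 0.28 for bchs and -0.91 to 0.45 for Cth. Without both arrays numbered 1 they were -0.24 for Atg1, 0.12 for Atg4a, 0.0044 for Atg9, 0.13 for Atg18a, 0.41 for Tango5 and 0.38 for Cth. CG5327, at background, was at -0.0020 under quantile normalization. The replicate block ended all calls of the whole table, Atg7 included, and gave none. Several genes were given earlier with the leave-out fit nearest 0. The fit farthest from 0 gave 0.61 for Atg101, 0.39 for Uvrag, 0.21 for Atg4b, 0.225 for Atg16, 0.53 for Vps16A and 0.31 for dor. It gave 0.41 for Lst8, 0.46 for Sesn, 1.04 for CG5493, -0.38 for Pi3K59F and -0.73 for Atg18b.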
